A study of Mus musculus with 26 samples.

Results

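Retinoic acid is made from vitamin A inside cells and acts on genes through nuclear receptors. The 9 genes described here carry out its synthesis, transport, restraint, breakdown and sensing: Aldh1a1, Aldh1a2, Aldh1a3, Crabp2, Rbp2, Dhrs3, Cyp26b1, Rara and Rarg. They were taken by gene name from 3 tables of RNA sequencing counts, from 40481 mouse genes and 55093 human genes, and all 9 were found in each table. The set was selected on earlier knockout-against-control results of these same samples, so the values of the 9 genes in those contrasts are a description and support nothing. The contrast between wild-type spheroids and wild-type crypts had no part in the choice and was tested.

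The study removed Fgfr1op from intestinal epithelium to disturb the centrosome of its stem cells. The gene encodes a centrosome protein also known as FOP or Cep43. Spheroids were epithelial cultures grown in Matrigel from mouse small intestine with a conditioned medium. They came from Fgfr1op KO and wild-type (WT) mice, in 4 samples of each genotype, and were taken at day 3 after hydroxytamoxifen (250 nM). Crypt-enriched preparations came from the small intestine of Fgfr1op KO and WT mice at days 6 and 9 after tamoxifen, with 3 mice in each group on each day. Caco-2 cells, an established human colorectal adenocarcinoma line, carried a lentiviral hairpin switched on by doxycycline, aimed either at Fgfr1op (shFgfr1op) or at no gene (scramble), and were taken in 3 samples each at day 3 after doxycycline.

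The recombinase, the cells it acts in, the deleted exons, the mouse strain and the animals' age are not given in the sources used here, nor is it said that the WT mice carried the recombinase. Nothing in the labels makes the spheroid samples separate mice or the Caco-2 samples separate cultures. Their p-values then reflect only the spread among those samples, possibly a technical one. Crypt columns are named by genotype and number without the day, and the 6 KO and 6 WT crypt libraries were compared with both days together.

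Depth was 44152608 to 67630241 gene counts a library in spheroids, 48068740 to 103352863 in crypts and 37281821 to 50965004 in Caco-2. Fgfr1op was lower in the group labelled KO or shFgfr1op in all 3 tables, by 0.42, 0.65 and 1.20 on the log2 scale in spheroids, crypts and Caco-2. Its adjusted p in edgeR was 0.117, 0.0261 and 1.65e-14. Crypt KO libraries 4, 5 and 6 stood apart from the other 9 crypt libraries on the first principal component, which held 73.2% of the variance of the 1000 most variable genes, and the crypt values of the 9 genes are also described without them. Which crypt libraries are from day 6 and which from day 9 is not known here, so whether day separates libraries 4 to 6 from the others was not tested, and day cannot be told apart from library in their values. They had 14.3 to 30.0 summed CPM (counts scaled to library size) of the 4 crypt base stem cell markers, where KO libraries 1 to 3 had 473 to 952 and WT libraries 852 to 2059. The sum was mostly Olfm4, with 8.37, 17.0 and 22.4 CPM in those 3 libraries and 817 to 1998 CPM in WT, while Ascl2 overlapped between KO (0.913 to 2.72 CPM) and WT (0.897 to 3.21 CPM). Spheroid WT library 1 also stood apart, on a component with 31.4% of the variance, and had 314 summed CPM of the 7 enterocyte markers where the other spheroid libraries had 34.4 to 212. All 6 epithelial markers were present in each table, at sums of at least 4274 CPM, while the 10 fibroblast and muscle markers summed to at most 2.34 CPM in spheroids and 54.8 CPM in crypts. In Caco-2 they summed to 258 to 263 CPM in shFgfr1op and 291 to 306 CPM in scramble, with 2 of the 10 at 0 in every library. That sum was mostly COL1A1, at overlapping levels with means of 188 and 198 CPM. Of the 5 tested in edgeR 1 was called higher, 2 lower and 2 neither. The part of these markers in the Caco-2 results was not tested.

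Retinol enters the absorptive cell or is formed there from carotenoids, and is bound in the cytosol by retinol-binding proteins, of which Rbp2 is the enterocyte form. Retinol is oxidised to retinal by enzymes such as Rdh10, and retinal is either reduced back by Dhrs3 or oxidised irreversibly to retinoic acid by the Aldh1a enzymes. Crabp2 passes retinoic acid to the nuclear receptors Rara, Rarb and Rarg, which bind DNA with an Rxr partner, and the Cyp26 enzymes break it down. In the intestine vitamin A is both absorbed and used, and retinoic acid is known for its part in epithelial differentiation and in mucosal immunity.

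The receptors bind paired copies of a 6-base motif, and 5 bases between direct repeats is the textbook arrangement of a retinoic acid response element. Promoter windows of RefSeq (GRCm38.p6, 250 bases before to 50 after each start) existed for 7 of the 9 genes, with 14 windows in all. Aldh1a3 and Crabp2 had none. The motif was sought as its consensus AGGTCA and in 3 variants, the first being AGTTCA, the next GGGTCA and the last being GGTTCA. No direct repeat of these, in any pairing, at a spacing of 1, 2 or 5, sought on both strands, lay in these 14 windows. Of all 32851 windows, 0.0974% held a repeat with a spacing of 5, and they included Rarb and Cyp26a1, known targets of retinoic acid. Both repeats are printed to show the element, with the motifs in capitals. The first is on the minus strand of chr14:16575513-16575529, the strand of the gene, and the other on the minus strand of chr19:37697776-37697792, opposite to the gene.
Rarb: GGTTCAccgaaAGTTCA
Cyp26a1: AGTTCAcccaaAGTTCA

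Rbp2 and Dhrs3 are printed next because their levels differed most between spheroids and crypts in the direction of crypts among the genes with a window and abundant counts. The 250 bases before the RefSeq start are shown on the plus strand, for Rbp2 chr9:98490287-98490536 and for Dhrs3 the window chr4:144892577-144892826, with the reverse complements of these motifs in capitals.
Rbp2: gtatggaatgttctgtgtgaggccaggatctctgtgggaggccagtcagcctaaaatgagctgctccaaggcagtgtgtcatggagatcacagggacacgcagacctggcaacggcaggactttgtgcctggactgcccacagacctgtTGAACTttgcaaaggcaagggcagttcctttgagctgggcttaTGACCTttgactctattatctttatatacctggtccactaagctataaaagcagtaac
Dhrs3: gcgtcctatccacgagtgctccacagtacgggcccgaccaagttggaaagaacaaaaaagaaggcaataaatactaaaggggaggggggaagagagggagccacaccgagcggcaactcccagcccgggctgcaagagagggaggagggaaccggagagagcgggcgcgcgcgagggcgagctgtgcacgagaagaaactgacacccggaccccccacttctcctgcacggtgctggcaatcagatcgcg

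The Rbp2 window holds 2 motifs, both read on the minus strand, 101 and 58 bases before the start, and the Dhrs3 window none. At least 1 of the 4 motifs occurred in 5 of the 14 windows of the genes described here and in 43.7% of all windows. AGGTCA alone occurred in 3 of them, 1 each of Rbp2, Rara and Rarg, and in 16.3% of all windows. These are matches of letters only.

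The levels of the 9 genes differed widely between cultured and freshly prepared epithelium. Per kilobase of exon (RPKM), WT spheroids had most Aldh1a1 at 20.8 ± 3.06 (SD, n = 4), then Rarg at 10.1 ± 1.34, Rara at 9.29 ± 0.408 and Dhrs3 at 7.20 ± 0.844. The libraries of Rarg overlapped with those of Rara and of Dhrs3, while Aldh1a1 lay above all of them. Rbp2 at 2.07 ± 2.15, Aldh1a3 at 1.56 ± 0.161 and Cyp26b1 at 1.53 ± 0.582 RPKM also overlapped among the 4 libraries. Crabp2 at 0.124 ± 0.0537 RPKM and Aldh1a2, with 3 counts in all 4 libraries together, were the lowest.

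In WT crypts Rbp2 stood far above the others, at 2507 ± 961 RPKM (SD, n = 6). Dhrs3 followed at 56.8 ± 9.11 and Aldh1a1 at 21.9 ± 13.2 RPKM, without overlap between any 2 of the 3 genes. Rara came next at 0.856 ± 0.263 RPKM. Aldh1a2, Aldh1a3 and Rarg had mean levels of 0.0688, 0.0613 and 0.0464 RPKM with overlapping libraries, and Cyp26b1 and Crabp2 had 12 and 2 counts in all 6 libraries.

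**Figure D1:**
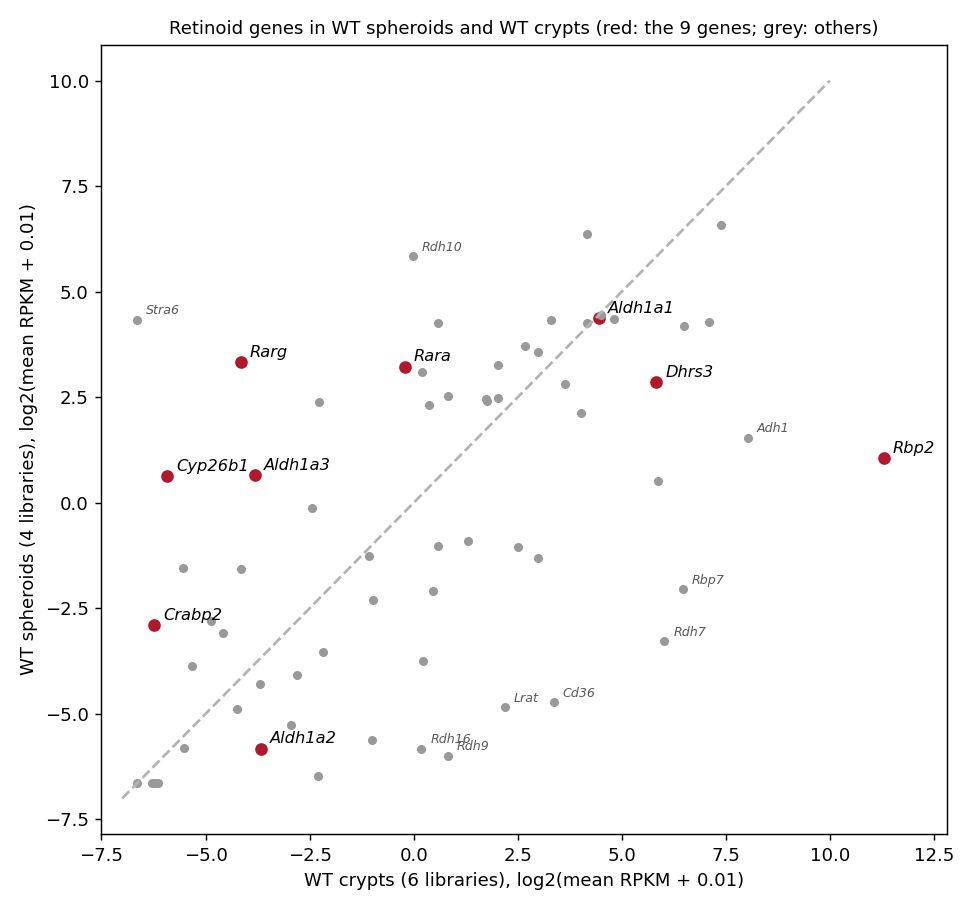
Mean level of retinoid genes in 6 WT crypt libraries (x axis) and 4 WT spheroid libraries (y axis), both as log2 of RPKM plus 0.01, with the 9 genes in red, most of the other retinoid genes in grey and equality as a dashed line. Rarg, Cyp26b1, Aldh1a3, Crabp2 and Rara lie above the line, Rbp2, Dhrs3 and Aldh1a2 below it, and Aldh1a1 close to it.

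The WT contrast was tested across 18485 genes in a fit of both mouse tables. Culture, preparation and library batch cannot be told apart in it. In edgeR 5 of the 9 genes were higher in WT spheroids, where 37.8% of all genes tested were, and 3 were lower, where 43.9% of all genes were. Crabp2 and Cyp26b1, with 2 and 12 counts over the WT crypts, passed the filter on low counts only through spheroids, and Aldh1a2, with 3 counts over the WT spheroids, only through crypts. Their calls therefore give no support, and without them 3 of 6 were higher and 2 lower. Rarg is 1 of these 6, at only 4 to 28 counts in each WT crypt library, and its call gives little support. With so many genes called, these shares set nothing apart, and the sizes are the main description. The median of all genes lay at -0.22 on the log2 scale, and every direction below held with RLE size factors. Levels in CPM were scaled within each table.

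Both receptors were higher in spheroids. Rarg, the retinoic acid receptor gamma, had 43.1, 47.9, 34.8 and 45.6 CPM in WT spheroids 1 to 4 and between 0.0655 and 0.628 CPM in the 6 WT crypt libraries, with a median of 0.115. The log2 difference was 7.30 ± 0.49 (SE; edgeR adjusted p = 4.68e-11). Rara, the retinoic acid receptor alpha, had 38.7 to 42.6 CPM in WT spheroids and 1.97 to 5.22 CPM in WT crypts, a log2 difference of 2.89 ± 0.23 (edgeR adjusted p = 4.00e-10). Of the summed RPKM of the 3 Rar genes, Rarg made up 47.1 to 54.7% in each WT spheroid library and 1.18 to 23.1% in each WT crypt library. Rara made up 70.9 to 94.4% in WT crypts, so the receptor mixture of the preparations had Rara on top while both genes were about equal in culture.

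Among the genes of synthesis, Aldh1a3, an enzyme that makes retinoic acid from retinal, had 6.47, 8.23, 7.22 and 6.96 CPM in WT spheroids and 0.179 to 0.429 CPM in WT crypts (median 0.242). Its log2 difference was 4.09 ± 0.85 (edgeR adjusted p = 0.000224). Aldh1a1, the main Aldh1a gene of both preparations, had 87.3 to 119 CPM in spheroids and 37.5 to 210 CPM in crypts, and the difference of -0.63 ± 0.50 did not pass (edgeR adjusted p = 0.253). Aldh1a2, an enzyme known mostly from mesenchymal and immune cells, had 3 counts in the WT spheroids and 63 in the WT crypts. Per read it was 12.0-fold higher in crypts, with a 95% exact binomial interval of 3.91 to 59.6 that covers counting error only.

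Of the carriers, Rbp2 was lower in spheroids by more than any other of the 9 genes, in every WT library. WT spheroids had 5.07, 0.654, 1.19 and 1.04 CPM and WT crypts 1448 to 3722 CPM (median 2275). The log2 difference was -10.82 ± 0.97 (edgeR adjusted p = 7.32e-09). Crabp2 had 36 counts in the WT spheroids and 2 in the WT crypts, 31.6-fold higher per read in spheroids with a 95% interval of 8.13 to 271 for counting error.

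Restraint and breakdown went opposite ways. Dhrs3, which returns retinal to retinol, had 18.6 to 24.4 CPM in WT spheroids and 128 to 191 CPM in WT crypts, a log2 difference of -3.53 ± 0.52 (edgeR adjusted p = 4.32e-06). Cyp26b1, which breaks down retinoic acid, had 4.80 to 11.9 CPM in WT spheroids and 0 to 0.0655 CPM in WT crypts. At 1831 counts over the WT spheroids and 12 over the WT crypts, the ratio per read was 268, with a 95% exact binomial interval of 153 to 519 that covers counting error only. The groups did not overlap for either gene.

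Of 61 other retinoid genes listed, 53 were tested in this contrast, with 17 higher and 28 lower in WT spheroids. Over all genes tested 37.8% were higher and 43.9% lower. The median log2 difference of the 53 was -0.72, beside -0.22 for all genes. In the spheroid table alone 40 of the 61 passed the filter on low counts, and in the crypt table alone 46. Genes that passed only through the group where they are high are part of these counts and of the median, and their calls give no support. Stra6, the cell-surface receptor for retinol bound to its plasma carrier, had 117 ± 45.6 CPM in WT spheroids (SD, n = 4) and no count in 6 WT crypt libraries. Against a floor of 3 counts over that group it was at least 16014-fold higher in spheroids. Rdh10, the retinol dehydrogenase of the rate-limiting first step, was higher by 5.33 ± 0.55. Lrat, which esterifies retinol for storage, was lower by 8.13 (difference -8.13 ± 0.92), as was Adh1, an alcohol dehydrogenase that also oxidises retinol, at -7.06 ± 1.27. By role, 9 of 13 genes of uptake, cleavage, storage and delivery and 11 of 13 that oxidise retinol were lower in spheroids. Of all genes tested 43.9% were lower. The spheroid table alone let only 10 and 7 genes of these roles through the filter on low counts. Genes let in only through crypts could hardly come out otherwise, so these counts give no support.

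Markers of cell types differed as well between these preparations. The 7 enterocyte markers summed to 49.9 to 314 CPM in WT spheroids and 10196 to 28308 in WT crypts, and all 7 were called lower in spheroids in edgeR. The 4 stem cell markers did not move together. Olfm4 had a mean of 1.68 CPM in WT spheroids and 1387 CPM in WT crypts and was called lower, Ascl2 had 76.7 and 2.16 CPM and was called higher, and Lgr5 and Smoc2 did not pass the test. The part of these markers in the differences above was not tested. In bulk RNA, fewer cells of a type and less RNA per cell cannot be told apart.

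Within spheroids the plainest difference between KO and WT was in Aldh1a3. KO libraries 1 to 4 had 11.4, 12.0, 13.5 and 12.2 CPM and WT libraries 6.47, 8.23, 7.22 and 6.96. Every KO library was above every WT library, and the log2 difference was 0.77 ± 0.11 (SE). Of the 9 genes 8 passed the filter on low counts, Aldh1a2 being left out. The all-gene edgeR fit called 1 of them higher, Aldh1a3, where it called 0.189% of 15915 genes higher, and 0 lower, where it called 0.0440% lower. At an unadjusted p below 0.05 it had 1 higher and 1 lower, the latter Dhrs3, which DESeq2 called. How many of all genes lay below that unadjusted p was not counted. The Aldh1a3 call was not stable when single libraries were left out. It was lost without KO 2, KO 4, WT 1, WT 3 or WT 4 (edgeR adjusted p 0.0599 to 0.114). The difference kept between 0.72 and 0.78 in these 5 fits.

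Dhrs3 had 14.9, 8.41, 15.0 and 9.39 CPM in KO spheroids and 24.4, 18.6, 20.2 and 21.0 in WT spheroids. No KO library reached the lowest WT library, and the log2 difference was -0.82 ± 0.19, short of the threshold. Aldh1a1 ranged from 53.2 to 152 CPM in KO and from 87.3 to 119 in WT, with a difference of -0.01 ± 0.28. As the main gene of its family it made up 78.6 to 92.2% of the summed Aldh1a RPKM in KO spheroids and 92.1 to 94.0% in WT spheroids. Aldh1a3 accordingly made up 7.82 to 21.3% in KO and 5.83 to 7.86% in WT, ranges that overlap slightly.

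The receptors were nearly level between KO and WT spheroids, with a log2 difference of 0.02 ± 0.06 for Rara and -0.11 ± 0.12 for Rarg. Rara lay between 40.0 and 42.4 CPM in KO and between 38.7 and 42.6 in WT. Cyp26b1 had 7.73, 3.78, 8.17 and 4.73 CPM in KO and 9.42, 11.9, 4.80 and 6.65 in WT, overlapping, with a difference of -0.42 ± 0.32. Rbp2 had 0.692, 3.89, 2.20 and 1.60 CPM in KO, and in WT library 1, which had most enterocyte markers, 5.07 against 0.654 to 1.19 in the other WT libraries. Its difference of 0.10 ± 0.72 was thus smaller than its own error, and without WT library 1 it was 1.12. Crabp2, at 51 counts in KO and 36 in WT over 4 libraries each, differed by 0.42 ± 0.41.

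**Figure D2:**
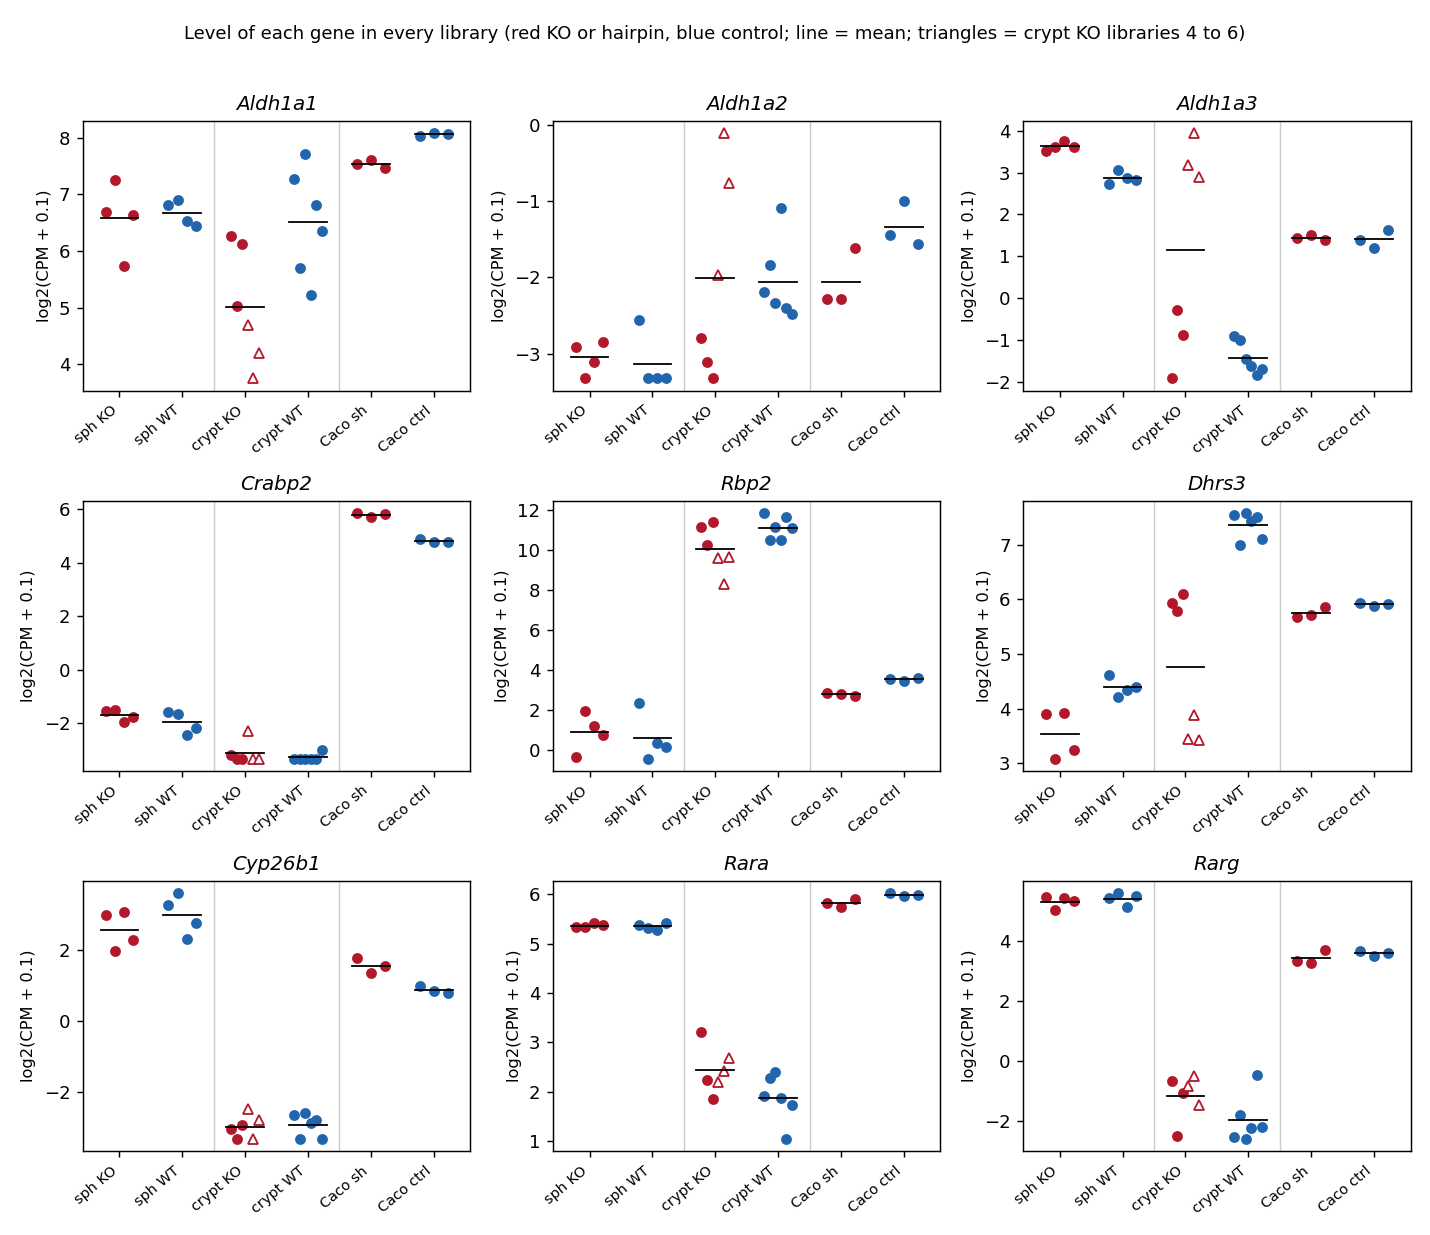
Level of each of the 9 genes as log2 of CPM plus 0.1 (y axis) in every library of the 6 groups (x axis), with KO or hairpin libraries in red, controls in blue, the group mean as a line and crypt KO libraries 4 to 6 as open triangles. Aldh1a3 is higher in all KO than WT spheroids and in crypt KO libraries 4 to 6, and Dhrs3 is lower in KO than WT in both mouse preparations without overlap.

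In crypts Dhrs3 again was lower in KO, and by more. KO libraries 1 to 6 had 61.3, 55.3, 68.3, 10.8, 14.7 and 10.7 CPM, and the WT libraries ran from 128 to 191 with a median of 177. All 6 KO libraries lay below all WT libraries, and libraries 4 to 6 lay below the other KO libraries. The log2 difference was -2.17 ± 0.49 (SE). Without libraries 4 to 6 it was -1.43 and still passed.

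Aldh1a3 in crypts split the KO group. It had 0.164, 0.724 and 0.444 CPM in KO libraries 1 to 3, 9.04, 15.3 and 7.33 CPM in libraries 4 to 6, and 0.179 to 0.429 CPM in WT (median 0.242). KO 1 lay just below the WT range and KO 2 and KO 3 just above it, and the difference of 4.25 ± 1.00 became 0.62 without libraries 4 to 6, short of the threshold. In those 3 libraries the level was in the range of the WT spheroids (6.47 to 8.23 CPM) or above, on separately scaled tables. Aldh1a3 made up as much as 51.9% of the summed Aldh1a RPKM in a KO crypt library, where it made up at most 0.799% in any WT crypt library.

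**Figure D3:**
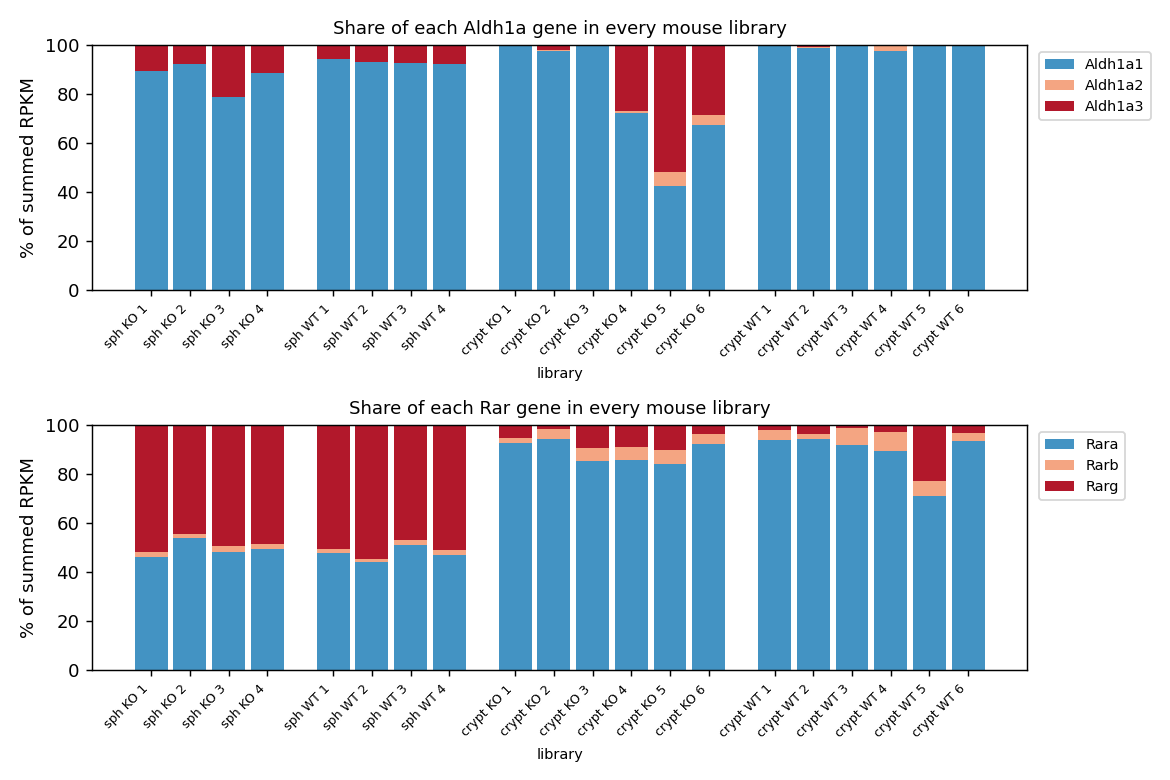
Share of the summed RPKM (y axis, percent) held by each of the 3 Aldh1a genes (upper panel) and the 3 Rar genes (lower panel) in every mouse library (x axis). Aldh1a1 holds at least 97.3% in each WT crypt library and at least 42.4% in each KO crypt library, and Rarg holds 44.4 to 54.7% in spheroids and at most 23.1% in crypts.

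Of the 9 genes 6 were tested in crypts, since Aldh1a2, Crabp2 and Cyp26b1 did not pass the filter on low counts. In edgeR 1 was called higher, Aldh1a3, where 14.0% of 16413 genes were, and 1 lower, Dhrs3, where 10.5% were. Without KO libraries 4 to 6 only Dhrs3 of the 9 was called. Aldh1a1 had 13.4 to 76.5 CPM in KO (median 29.2) and 37.5 to 210 in WT (median 97.2), with overlap and a difference of -1.46 ± 0.52. It passed without KO 1 (-1.76), KO 3 (-1.74) or WT 4 (-1.67). Its neighbour Aldh1a7 is a closely related gene, and whether reads were split between the 2 was not tested. Aldh1a7 was lower by 1.75 (difference -1.75 ± 0.50), a call lost without KO 4, KO 6, WT 3 or WT 5.

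Rbp2 had 2334, 1253, 2718, 785, 323 and 806 CPM in KO crypts 1 to 6 and 1448 to 3722 CPM in WT crypts. KO libraries 4 to 6 lay below all WT libraries, KO 1 and KO 3 within them and KO 2 just below, and the difference was -0.82 ± 0.45, or -0.20 without libraries 4 to 6. The sum of the enterocyte markers moved with it, at 3085 to 6453 CPM in KO libraries 4 to 6, 11736 to 26473 in KO 1 to 3 and 10196 to 28308 in WT. That sum was mostly Apoa1 and Fabp2, at WT means of 6645 and 6041 CPM. Apoa4 had 2 KO libraries above all WT libraries and 3 below them, and Alpi 1 above and 2 below. The part of these markers in the values of Rbp2, Dhrs3 and Aldh1a1 was not tested. Of the 7 enterocyte markers, 1, Sis, was called lower over the whole KO group in edgeR (-1.09 ± 0.26, adjusted p = 0.00983). Summed stem cell markers, mostly Olfm4, were lower in the same 3 libraries, as given above. The secretory markers summed to 2644 to 3926 CPM there, 7331 to 10285 in KO 1 to 3 and 6693 to 17056 in WT. Of the 4 secretory markers 1 was called lower over the whole KO group in edgeR and 3 were not called.

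Rara had 3.54 to 9.17 CPM in KO and 1.97 to 5.22 in WT crypts, a difference of 0.57 ± 0.26, and Rarg 0.0787 to 0.612 and 0.0655 to 0.628, a difference of 1.02 ± 0.58. Neither passed, and Rarg did without WT library 5 (1.72). Aldh1a2 had 0 to 0.0438 CPM in KO libraries 1 to 3, 0.156 to 0.829 in KO 4 to 6 and 0.0787 to 0.371 in WT. The fibroblast and muscle markers were highest in the KO library with most Aldh1a2, at 54.8 CPM, and in the WT library with most Aldh1a2, at 44.0 CPM. Their part was not tested. Crabp2 had 9 counts in all 6 KO libraries and Cyp26b1 14.

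**Figure D4:**
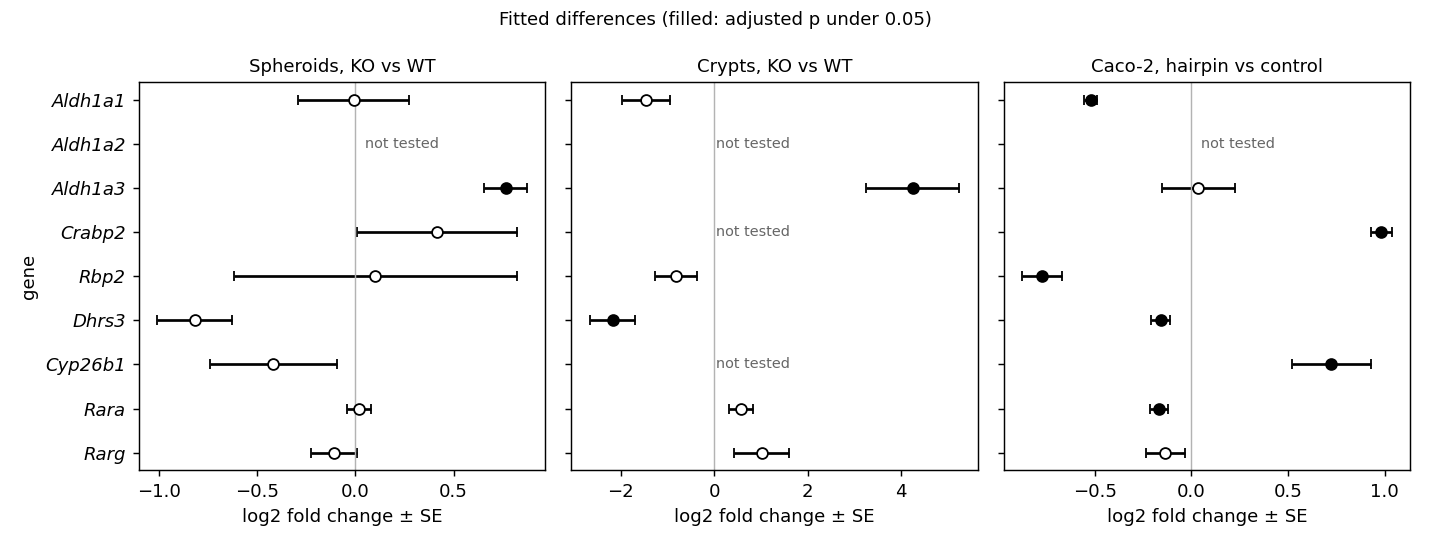
Log2 fold change with its standard error (x axis) for each of the 9 genes (y axis) in spheroids, crypts and Caco-2, with filled points where the adjusted p of the all-gene fit was below 0.05. Dhrs3 is below 0 in all 3 panels, Aldh1a3 is above 0 in the mouse panels and at 0.04 in Caco-2, and the scales differ between panels.

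The difference between the 2 KO effects was fitted for the 6 genes tested in both mouse tables, and like its parts it is a description. None of the 6 was called in edgeR, with 0 in either direction, where 1.10% of 18485 genes had a larger and 1.76% a smaller difference in spheroids. At an unadjusted p below 0.05 it had 3 of the 6, Aldh1a3, Aldh1a1 and Dhrs3, with the share of all genes below that p not counted. DESeq2 called 1 and limma voom with quality weights called 3. For Aldh1a3 the spheroid effect minus the crypt effect was -3.43 ± 1.16, and it passed without crypt KO 1 or KO 3 (-3.62 and -3.67). Without crypt KO libraries 4 to 6 it was 0.23.

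The other retinoid genes in spheroids showed 1 call among 40 tested, and 0 lower. Over all genes tested 0.189% were called higher and 0.0440% lower. Rdh10, which oxidises retinol to the retinal that Aldh1a3 uses, had 366, 429, 344 and 389 CPM in KO and 195, 268, 227 and 260 in WT spheroids. It rose by 0.68 ± 0.11 (edgeR adjusted p = 0.0360), a call held in 1 of the 8 fits that left out a library, the fit without KO 3. At an unadjusted p below 0.05 there were 5 higher and 7 lower, and DESeq2 called 2 higher and 1 lower. The share of all genes below that unadjusted p was not counted, so these counts set nothing apart. The median of the 40 was -0.08 on the log2 scale. Next by p was Aldh1a7, at -0.79 ± 0.18 (adjusted p = 0.115).

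Crypts showed 5 higher (10.9%) and 13 lower (28.3%) of 46 other retinoid genes tested. Over all genes tested 14.0% were higher and 10.5% lower. The median of the 46 was -0.35 beside 0.05 for all genes. Of the 12 tested for uptake, cleavage, storage and delivery, 5 were lower and 2 higher. Cd36, a fatty acid and carotenoid transporter, fell by 3.19, Bco2, a carotenoid-cleaving oxygenase, by 2.16, Lrat by 1.89, Stra6l, a receptor for retinol-binding protein, by 0.73 and Isx, a transcription factor that restrains carotenoid uptake, by 0.45. Lrat and Isx were each called in only 3 of the 12 fits that left out a library, and Stra6l in 7. Scarb1, a carotenoid and lipid receptor, was higher by 1.94 ± 0.53.

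The enzymes that oxidise retinol moved both ways in crypts, with 5 of 12 lower and 2 higher, where 10.5% and 14.0% of all genes were. Sdr16c5 fell by 2.54, Adh4 by 2.68, Rdh16 by 2.09, Rdh1 by 1.52 and Rdh5 by 1.05, with Adh4 called in 5 of 12 leave-one-out fits. Rdh10 rose by 2.39 ± 0.57 and Dhrs9, another retinol dehydrogenase, by 1.64 ± 0.40. Rdh10 had 29.6 to 46.9 CPM in KO libraries 4 to 6, and 3.43 to 8.59 in KO 1 to 3 beside 3.31 to 5.06 in WT, the same split as Aldh1a3. Among the retinal reductases that stand beside Dhrs3, Dhrs4 fell by 0.63 and Rdh11 by 0.52.

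Without KO libraries 4 to 6 the crypt table kept none of the 5 higher calls and had 8 lower calls among the other retinoid genes. The 8 included Cd36 at -2.86, Sdr16c5 at -1.72 and Rdh16 at -1.51. Bco2 was at -1.40 and Lrat at -1.03, their smallest differences over 18 alternative fits. The Bco2 call was lost in 1 of the 18 and the Lrat call in 10, and neither is named here among the 8. Rdh10 was at 0.56, short of the threshold.

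**Figure D5:**
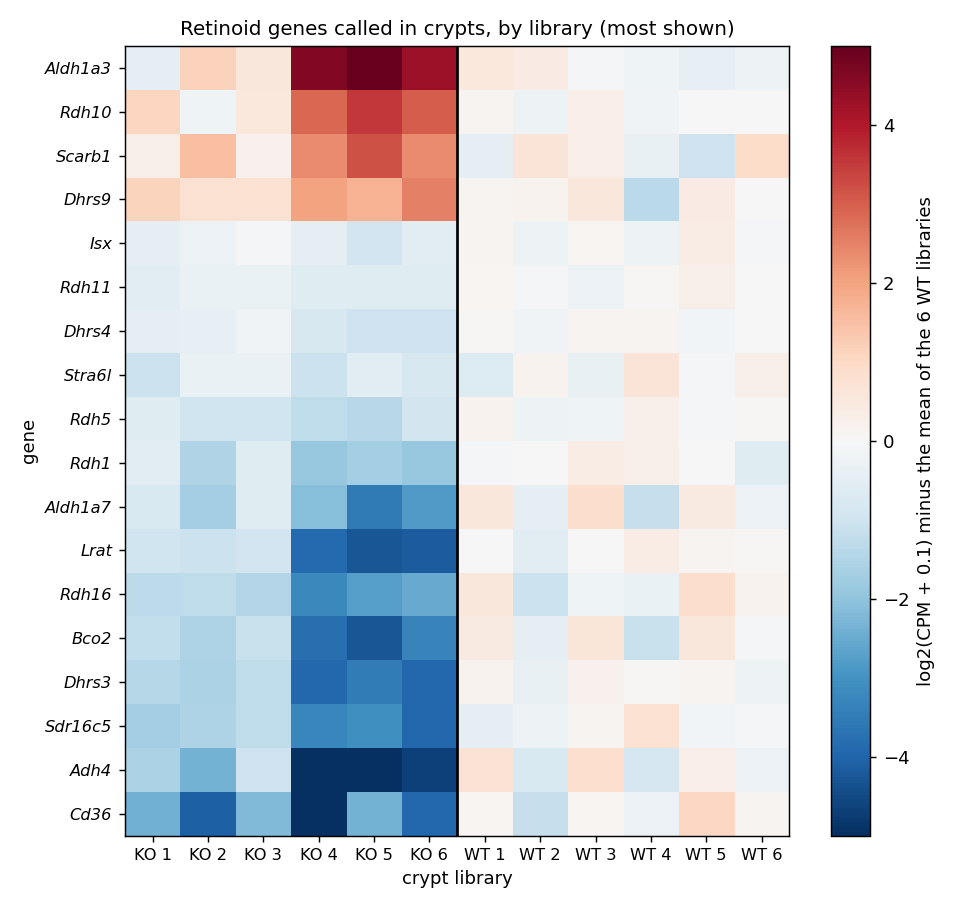
Most of the retinoid genes called in crypts (rows) in each of the 12 crypt libraries (columns), as log2 of CPM plus 0.1 minus the mean of the 6 WT libraries, from blue (lower) to red (higher), with colours capped at 5. Dhrs3, Lrat, Bco2 and Cd36 are lower in all 6 KO libraries than in the WT mean, and Aldh1a3 and Rdh10 are raised mainly in KO libraries 4 to 6.

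Caco-2 cells had small errors between samples, and more of the 9 genes were called there. Of the 8 tested, ALDH1A2 being left out, edgeR called 2 higher in shFgfr1op, where it called 15.7% of 18905 genes higher, and 4 lower, where it called 16.2% lower. No exon lengths of the human build were at hand, so levels of different genes are not compared in Caco-2. CRABP2 (57.3, 52.3 and 56.3 CPM in shFgfr1op, 29.2, 27.4 and 27.4 in scramble) was higher by 0.98 ± 0.05 on the log2 scale. CYP26B1 had 3.31, 2.43 and 2.80 CPM against 1.88, 1.67 and 1.63, higher by 0.72 ± 0.20. The carrier of retinoic acid and the enzyme that breaks it down thus both had higher counts, with no overlap between the groups.

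RBP2 and ALDH1A1 were lower in shFgfr1op. RBP2 had 7.19, 6.97 and 6.44 CPM in shFgfr1op and 11.8, 11.1 and 12.3 in scramble, a difference of -0.77 ± 0.10. ALDH1A1 had 186, 196 and 177 CPM against 262, 271 and 269, a difference of -0.52 ± 0.03. Again no libraries overlapped, and these 4 genes were called in every fit that left out 1 library. The share of all genes without overlap was not counted, so the lack of overlap sets nothing apart.

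DHRS3 was lower by a much smaller amount than in the mouse, with 50.9, 52.6 and 57.7 CPM in shFgfr1op and 61.2, 59.2 and 60.0 in scramble. Its difference was -0.16 ± 0.05, and the call was lost without shFgfr1op library 1 (-0.12). RARA had 56.4, 53.0 and 59.5 CPM against 64.4, 62.0 and 63.4, a difference of -0.17 ± 0.05, lost without shFgfr1op library 2 (-0.12). RARG overlapped, at -0.14 ± 0.10, and passed without shFgfr1op library 3 (-0.28). ALDH1A3, the gene that stood out in the mouse, had 2.62, 2.75 and 2.51 CPM against 2.52, 2.19 and 2.97, a difference of 0.04 ± 0.19. ALDH1A2 had 18 counts in shFgfr1op and 41 in scramble.

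Of 44 other retinoid genes tested in Caco-2, 9 were higher and 9 lower (20.5% each), with a median of -0.02. Over all genes tested 15.7% were higher and 16.2% lower. Of the 11 for uptake, cleavage, storage and delivery, 5 were lower and 1 higher. SCARB1 fell by 0.53, DGAT1, which can esterify retinol, by 0.60, the retinoid carriers RBP4 and TTR by 0.62 and 0.63, and ISX by 1.03. ISX had 4.41, 4.54 and 4.63 CPM in shFgfr1op and 8.47, 9.91 and 9.41 in scramble. RARB, a receptor that is itself a target of retinoic acid, fell by 0.60 from 6.07 ± 0.387 to 3.99 ± 0.629 CPM (SD, n = 3 each), and RXRA by 0.12.

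Among 8 listed targets tested in Caco-2, HOXA5, HOXB4 and RARRES2 were higher by 0.34 to 0.74 and TGM2 lower (-0.20 ± 0.04). HOXA5 was called in 2 of the 6 leave-one-out fits. Of 8 coregulators, NCOA2, NCOA3 and KAT2B were higher by 0.22 to 0.45. RBP7, a cellular retinol-binding protein, was higher by 1.17 ± 0.21, and ADH1B, at 129 counts in shFgfr1op and 17 in scramble, by 3.01 ± 0.49. RDH13, a retinal reductase, was lower (-0.18 ± 0.07) and was called in 2 of the 6 leave-one-out fits. The 6 enterocyte markers summed to 992 to 1137 CPM in shFgfr1op and 1895 to 1925 in scramble. That sum was mostly APOA1, at a mean of 1007 and 1823 CPM, and of 4 tested 3 were called lower while ALPI was called higher (25.9 and 22.1 CPM). The 4 stem cell markers summed to 73.3 to 76.6 CPM in shFgfr1op and 34.0 to 37.3 CPM in scramble, and all 3 tested (LGR5, ASCL2 and SMOC2) were called higher. Their part in these differences was not tested.

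Genes whose levels followed Aldh1a3 or Rbp2 most closely over libraries were found by Pearson's correlation of log2 CPM, as a description in libraries that share genotype, depth and preparation. Over 8 spheroid libraries Aldh1a3 went with Mxd4, Usb1 and B3gat3 (r = 0.98 each), and over 12 crypt libraries with Slc45a3 (r = 0.98), Arid5a and Setd4 (r = 0.97 each), so no gene was among the first 3 in both. Rbp2 went with Slc10a2, Fabp1 and Cyp3a11 in spheroids (r = 0.97 to 0.99) and with Cyp2d26, Fabp1 and Tm6sf2 in crypts (r = 0.99 each). Fabp1, the liver-type fatty acid-binding protein of enterocytes, was on both lists for Rbp2.

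The 9 genes lie apart on the mouse genome (mm10). Aldh1a1 (ENSMUSG00000053279) is at chr19:20492715-20643465, Aldh1a3 (ENSMUSG00000015134) at chr7:66390890-66427517 and Dhrs3 (ENSMUSG00000066026) at chr4:144892827-144928209. Rbp2 (ENSMUSG00000032454) is at chr9:98486115-98509781. Aldh1a1, Aldh1a2, Rbp2 and Rara each overlap at least 1 other annotated gene, and since nothing states whether counting used the strand, reads of such neighbours cannot be told apart from theirs.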

How the data were processed

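The authors deposited 3 tables of whole-number read counts per gene, for spheroids, crypts and Caco-2. STAR, DESeq2 and mm10 are named, with no tool version, per the submitters' processing notes. The Caco-2 table holds human identifiers although its labels name the mouse, and has a build not given in the sources used here. Spheroid columns were matched by title. Crypt columns show genotype but not day and were matched to their genotype. Caco-2 columns were matched through the catalogue numbers of the hairpins, of which the scramble match rests on a single final digit. Repeated identifiers were removed (276 in each mouse table, 116 in Caco-2).

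Each table was fitted whole with edgeR 4.0.16 in R 4.3.3 (filterByExpr, TMM, robust quasi-likelihood F test, Benjamini-Hochberg adjustment, called below 0.05). The WT contrast and the difference between KO effects came from 1 fit of both mouse tables. The standard error is the log2 fold change divided by the square root of F. CPM uses TMM-scaled totals of the library's own table, and RPKM divides it by the union exon length of GENCODE M21. The fit was tested on simulated data. Replicates differed by more than sampling noise (chi-square per degree of freedom of at least 3.98), so each library was counted once.

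The genes, lists and tests were chosen with earlier results of these data known. Named are the 9 genes, Fgfr1op, the other retinoid genes called in each comparison (or the 3 of smallest p), and the 3 genes of highest correlation with Aldh1a3 and Rbp2. Some genes so named are given only in counts, and some are not reported here by name. Alternatives were RLE size factors, no filter, at least 1 CPM, limma 3.58.1 voom with quality weights, DESeq2 1.42.0, each library left out, the replicate number as a block, a log2 fold change of 1 or more in size and, for the WT contrast, a fit of WT libraries alone. Leaving out crypt KO libraries 4 to 6 was added after seeing the data.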

Additional observations from a re-analysis of the deposited data

Results flagged for a closer look

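For those of the 9 genes that were tested and the other retinoid genes called between KO and WT, 66 combinations of gene and mouse group were checked for a library far from the rest by Dixon's ratio, which chance alone passes in about 1 of 20. There were 2 such cases. Rbp2 in spheroid WT library 1 was at 5.07 CPM, with the next WT library at 1.19. Rarg in crypt WT library 5 was at 0.628 CPM, with the next WT library at 0.188.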

How the results depend on the processing

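Counts below are of all genes called and of the 9 genes called, in that order, and the cause of each change was not tested unless the setting itself leaves out samples or genes. Spheroids gave 37 and 1, and 154 genes without the filter, 577 and 2 with DESeq2, and 9 and 0 at a log2 fold change of at least 1. Crypts gave 4014 and 2, and 7179 and 5 with limma voom, 1798 genes at a log2 fold change of at least 1, and 924 and 1 without KO libraries 4 to 6. Caco-2 gave 6031 and 6, and 562 and 0 at a log2 fold change of at least 1. The difference between KO effects gave 528 and 0, and 273 genes without the filter, 4723 and 3 with limma voom, 1457 and 1 with DESeq2, and 110 genes without crypt KO libraries 4 to 6. The WT contrast gave 15097 and 8, and of the 9 genes 7 without crypt KO libraries 4 to 6, where Aldh1a2 was not tested, and 6 at 1 CPM or with WT libraries alone, where Crabp2 was not tested either.

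Leaving out each library in turn gave 3 to 160 genes and 0 to 1 of the 9 in spheroids, 2749 to 5005 and 2 to 3 in crypts, 5162 to 5697 and 5 to 7 in Caco-2, 14804 to 15266 and 8 to 8 in the WT contrast, and 105 to 1419 and 0 to 1 for the difference between KO effects. Same-numbered libraries did not deviate together (Pearson r of deviations from -0.030 to 0.098 in spheroids and 0.0033 to 0.044 in Caco-2), so the numbers were not taken as pairs. With the replicate number as a block, spheroids gave 71 genes and 2 of the 9, the second being Dhrs3 at -0.86, and crypts carry no such pairs.

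Directions turned for the following differences. In spheroids Rbp2 was at -0.39 without KO 2 and at -0.19, -0.08 and -0.11 without WT 2, 3 and 4. Aldh1a1 was at 0.21 and 0.0031 without KO 3 and 4, and at 0.03 and 0.07 without WT 1 and 2. Rara was at -0.0061 without WT 3. ALDH1A3 in Caco-2 was at -0.070 without scramble 2. Over all single libraries left out these ran from -0.39 to 1.12 (Rbp2), -0.27 to 0.21 (Aldh1a1), -0.0061 to 0.041 (Rara) and -0.070 to 0.16 (ALDH1A3). The difference between KO effects for Aldh1a3 was at -3.43, and at 0.23 without crypt KO libraries 4 to 6. Depth limits Aldh1a2, Crabp2 and Cyp26b1 in crypts, where each had at most 104 counts over a group of 6 libraries.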
